A study of Mus musculus with 24 samples.

Results

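Cytosolic ribosomal proteins were followed in quadriceps muscle of mice on a low or a high fat diet. They were taken as every probe set (the group of short array probes that reads 1 gene) annotated with a single symbol of the form Rpl or Rps followed by a number and at most 1 of the letters a, x, y or l, together with Rplp0 to Rplp2 and Rpsa. The rule used names only, not measured values. It found 19 genes, each read by 1 probe set, of 14754 genes with a single symbol: 11 of the large subunit (Rpl4, Rpl8, Rpl13a, Rpl14, Rpl17, Rpl21, Rpl22, Rpl31, Rplp2, Rpl3l and Rpl39l) and 8 of the small subunit (Rps3, Rps9, Rps14, Rps15, Rps15a, Rpsa, Rps4l and Rps27l). These include 15 of the 79 canonical ribosomal protein genes (9 of 47 large and 6 of 32 small) and 4 paralogues, Rpl3l, Rpl39l, Rps4l and Rps27l. The measured genes are therefore a small sample of the ribosome, and 2 further probe sets that carry a ribosomal protein name together with another symbol (Rpl3 with F2, Rpl23 with Mrpl23) were not members.

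The study asked how muscle RNA responds to a short and to a longer time on a high fat diet. Male C57BL/6J mice, spelled C56BL/6J in the sample labels, all ate the low fat food first as a run-in and were then assigned at random to one of a pair of palm oil diets: the low fat diet drew 10% of its energy from fat, the high fat diet 45%. They were killed on day 3, at 12 weeks of age, or on day 28, at 16 weeks of age, so time on the diet and age cannot be told apart. Each of the 4 groups held 6 mice, with 1 Affymetrix array per mouse and 24 arrays in all. The mouse numbers in the labels form a separate range for each diet and day, so the diet and the set of animals it was given to cannot be told apart. Values are log2 of the GCRMA intensity (a background-corrected and normalized brightness). A level compares the same probe set between arrays, never 2 genes with each other. Muscle is a mixture of fibres and other cells, and in whole tissue fewer cells of a type and less RNA per cell cannot be told apart.

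A ribosome joins a small subunit, which holds the mRNA and checks codon against anticodon, to a large subunit, which forms the peptide bonds. Each subunit is built from ribosomal RNA and many proteins that are made in matched amounts. The mRNAs of these proteins begin with a C followed by an unbroken stretch of C and T (U in the RNA), the terminal oligopyrimidine or TOP motif. Growth signals passing through mTOR complex 1 and the RNA-binding protein LARP1 act through it, mostly on translation and stability of the mRNA. An array reads the amount of mRNA and not its translation. Skeletal muscle is also one of the few tissues that express the paralogue Rpl3l in place of part of its Rpl3. Ribosomal protein genes have many processed pseudogenes and near copies, so a probe set can also read RNA other than that of the named gene; probe sequences were not used here.

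The start regions of 6 members are printed here because they show how differently the TOP motif appears at the annotated starts of genes that were measured side by side. They are RefSeq sequences of mouse build GRCm38.p6, 30 bases each, 5′ to 3′ along the gene, with 15 bases before the annotated start followed by 15 bases from the start base onward. Capitals mark the longest run of C and T that lies at the start or within 10 bases of it, where that run has at least 5 bases. Rps15, Rps3 and Rpl13a were higher on the high fat diet at day 3, Rplp2 and Rpl14 meet the TOP rule, and Rpl3l is the muscle paralogue.
Rps15, chr10:80292416-80292445, plus strand: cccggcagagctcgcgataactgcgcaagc
Rps3, chr7:99483695-99483724, minus strand: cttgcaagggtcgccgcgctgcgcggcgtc
Rpl13a, chr7:45128731-45128760, minus strand: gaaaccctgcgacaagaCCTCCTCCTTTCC
Rplp2, chr7:141447636-141447665, plus strand: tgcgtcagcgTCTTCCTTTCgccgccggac
Rpl14, chr9:120571502-120571531, plus strand: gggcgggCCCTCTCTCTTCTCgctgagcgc
Rpl3l, chr17:24727811-24727840, plus strand: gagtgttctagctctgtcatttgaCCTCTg

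A start base C followed by at least 4 bases that are each C or T was found in 3 of the 17 windows of the 14 members with a RefSeq entry (17.6%), those of Rplp2, Rpl14 and Rps15a, against 2.51% of the 32851 start windows in the table. No window of the 58 from mitochondrial ribosomal protein genes had it (0%). A run of C and T of at least 8 bases that touches or lies within 10 bases of the start, a looser rule added after the windows had been read, was found in 8 of 17 windows (47.1%) against 14% of all windows and 10.3% of the mitochondrial set. Of the 4 members called higher at day 3 below, Rpl13a had such a run, Rps15 and Rps3 did not, and Rps14 had no entry. The word CCGGAAG, the core bound by ETS factors such as GABP, was searched on both strands of the windows of 300 bases and found in 29.4% of the member windows, 8.86% of all windows and 36.2% of the mitochondrial ones. ATGGCGG, the core bound by YY1, was found on either strand in 17.6%, 4.05% and 20.7%. No member window held both words, and CCGGAAG read on the other strand, CTTCCGG, begins with letters that a run of C and T can share. These are matches of letters at annotated starts and were not tested as sites. The starts used in muscle were not measured, so a window without the motif does not show that the mRNA lacks it.

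Muscle identity was clear on all arrays: 14 of the 15 skeletal muscle markers had a probe set and all 14 passed the filter, with a summed intensity from 146293 to 162749. One array stood furthest apart. High fat day 3 replicate 5 had the highest value of its group for 12 of the 13 tested members and the lowest for Rpl22. The 6 lymphocyte markers with a probe set, of 13 listed, summed to an intensity of 381 there and to between 43 and 114 on the other 23 arrays. Ptprc (CD45, carried by all white blood cells) was at 8.36 against 4.61 to 6.60 elsewhere, and Cd79b, of B cells, at 5.06 against 1.28 to 2.36. Of the T cell genes, Cd3g was at 2.60 against 0.97 to 1.51, and Cd3e lay within the range of the others. Cd8a and Cd4 were at most 1.97 and 2.30 on any array. The array was not apart in lymphocyte markers alone. Within its group it had the highest adipocyte (20377) and macrophage (2324) sums. It also had the lowest endothelial (951) and fibroblast and tendon (9051) sums of that group. Day 3 results are therefore given with and without this array. Low fat day 28 replicate 5 had the highest adipocyte (24482) and macrophage (3347) sums of all arrays. Its lymphocyte sum was 114, and it had the highest value of its group for 6 of the 13 members. Day 28 results without it are also given. The part of these cells in the results was not tested.

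At day 3, several ribosomal protein mRNAs were higher in high fat than in low fat muscle, by small amounts. Of the 13 members bright enough to test (log2 above 4 on at least 6 arrays), Rps15, Rps3, Rps14 and Rpl13a were called higher, by 1.15 to 1.26-fold, and none lower (limma, Benjamini-Hochberg adjusted p under 0.05 over 5793 genes, two-sided). Higher calls made up 7.99% of all tested genes and lower calls 6.87%. The difference was above 0 for 12 of the 13, against 49.1% of all tested genes (11 of 13 after quantile normalization of the arrays), with a median of 0.19 on the log2 scale against -0.01 over all of them. Without high fat day 3 replicate 5, Rps15 and Rps3 remained called, 7.09% of all genes were called higher, 13 of 13 members lay above 0 and their median was 0.13.

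**Figure D1:**
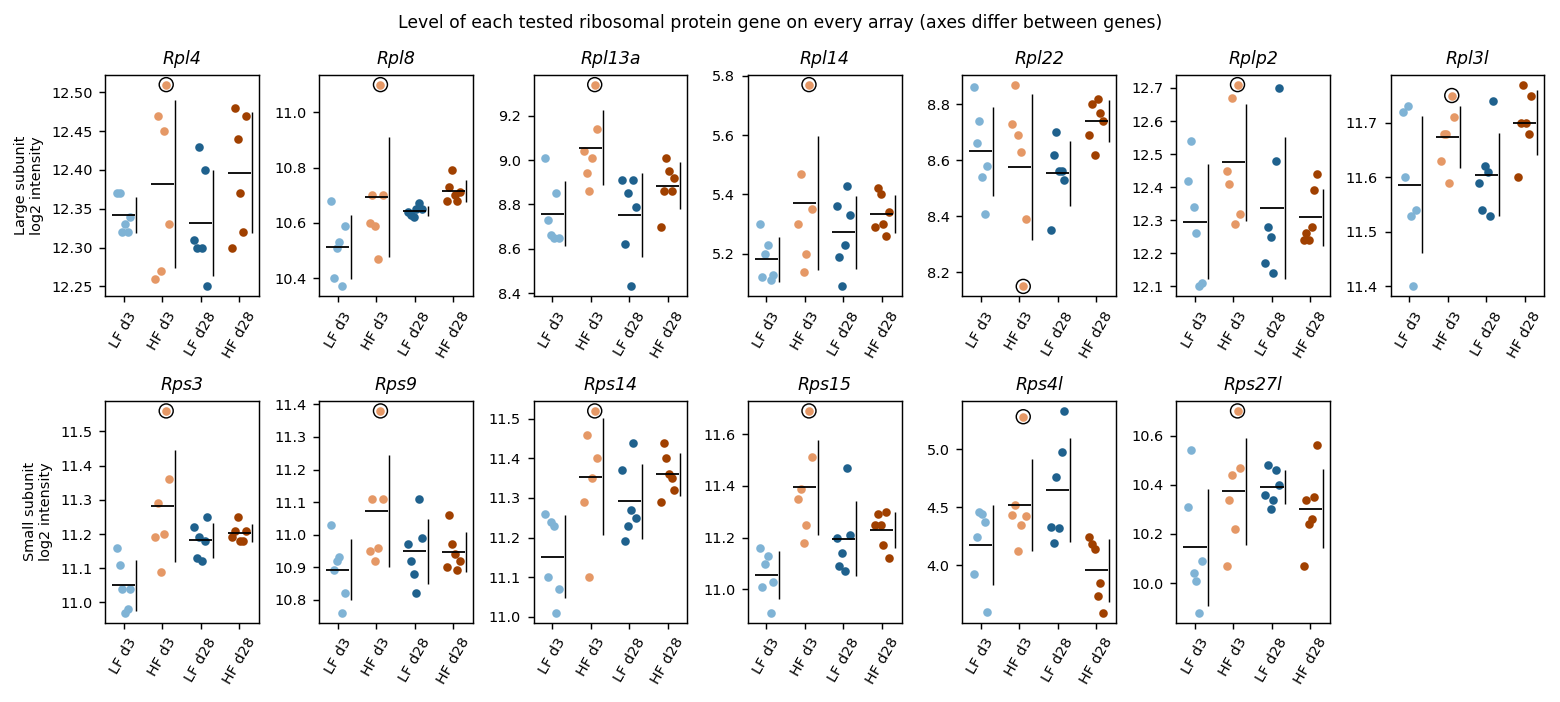
Log2 intensity of each of the 13 tested ribosomal protein genes (vertical axis, scaled separately for each gene) on every array of the 4 groups (LF low fat, HF high fat, d day), with the group mean as a horizontal bar and 1 SD as a vertical line. High fat day 3 replicate 5 is circled: it is the top point of its group in 12 of the 13 panels and the bottom point for Rpl22, and only Rps15 at day 3 and Rpl8 at day 28 show diet groups that do not overlap.

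The small subunit gave 3 of the 4 calls. Rps15, a protein of the small subunit's head that is needed for the late steps of subunit maturation, had low fat levels of 10.91 (lowest), 11.07 (median) and 11.16 (highest), and high fat levels of 11.18, 11.37 and 11.69. All 6 high fat arrays lay above all 6 low fat arrays, a separation seen in this direction for 3.50% of tested genes and for no other member, tested or not. The difference was 0.34 ± 0.08 (SE, 6 mice per group; 1.26-fold, adjusted p = 0.00519), and 0.28 ± 0.07 (adjusted p = 0.0123) without high fat replicate 5.

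Rps3, which lines the channel where mRNA enters the ribosome, ran from 10.97 to 11.16 on low fat (median 11.04) and from 11.09 to 11.56 on high fat (median 11.24). The groups overlapped by 1 array, since 5 of 6 high fat values lay above the highest low fat value. Its difference was 0.23 ± 0.06 (1.17-fold, adjusted p = 0.0123), and 0.18 ± 0.05 (adjusted p = 0.0251) without replicate 5. Rps14, a protein of the platform near the decoding site, ran from 11.01 to 11.26 on low fat (median 11.16) and from 11.10 to 11.52 on high fat (median 11.38), again with 5 of 6 high fat values on top. Its difference of 0.20 ± 0.07 (1.15-fold, adjusted p = 0.0407) lay close to the threshold, and it was 0.17 ± 0.07 (adjusted p = 0.0927) without replicate 5. Leaving out any 1 of low fat day 3 replicates 2, 5 and 6 or of high fat day 3 replicates 2, 4 and 6 also ended the Rps14 call, with adjusted p between 0.0588 and 0.0955.

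In the large subunit 1 of 7 tested members was called. Rpl13a, which is also known to leave the ribosome and silence selected mRNAs after interferon-gamma, had low fat levels of 8.65, 8.69 and 9.01 (lowest, median, highest) and high fat levels of 8.86, 9.02 and 9.34. All 6 high fat arrays lay above the low fat mean and 4 lay above the highest low fat array. The difference was 0.30 ± 0.09 (1.23-fold, adjusted p = 0.0304) and 0.24 ± 0.09 (adjusted p = 0.0724) without high fat replicate 5. Its call also ended without any 1 of low fat day 3 replicates 2, 3, 4 and 6 or without high fat day 3 replicate 6, with adjusted p between 0.0542 and 0.0624. Rps15 and Rps3 kept their calls whichever single array was left out.

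The other 9 tested members did not pass. Rps9 (0.18, adjusted p = 0.0875), which contributes to decoding accuracy, Rpl8 (0.18, adjusted p = 0.114), which lies beside the peptidyl transferase centre, and Rpl14 (0.19, adjusted p = 0.122) had differences close to that of Rps14 and lay above 0. Rpl8 passed without high fat day 3 replicate 4 (0.22, adjusted p = 0.0467). Rplp2, part of the acidic stalk that recruits elongation factors, differed by 0.18 (adjusted p = 0.222). Rps27l, a p53-inducible paralogue of Rps27, differed by 0.23 (adjusted p = 0.151), and passed without low fat day 3 replicate 2 (0.31, adjusted p = 0.0437). Rps4l, a paralogue of Rps4x, had the largest estimate, 0.35 ± 0.20, but also the widest spread (adjusted p = 0.264), and its highest high fat value of 5.28 was that of replicate 5.

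Among the large subunit members, Rpl4, Rpl3l and Rpl22 had the smallest differences at day 3. Rpl4, which reaches into the peptide exit tunnel, differed by 0.04 (95% interval -0.07 to 0.15, adjusted p = 0.651), and the muscle paralogue Rpl3l by 0.09 (-0.03 to 0.20, adjusted p = 0.329). These intervals do not reach the 0.34 estimated for Rps15, whose own interval was 0.18 to 0.50 and overlaps that of Rpl3l. Differences between genes were not tested. Rpl22, an RNA-binding protein that the ribosome can do without and that lymphocytes need for their development, was the one tested member with an estimate below 0, at -0.06 (-0.25 to 0.14, adjusted p = 0.738). Its lowest value on any of the 24 arrays, 8.15, came from high fat day 3 replicate 5, and without that array its estimate was 0.03.

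**Figure D2:**
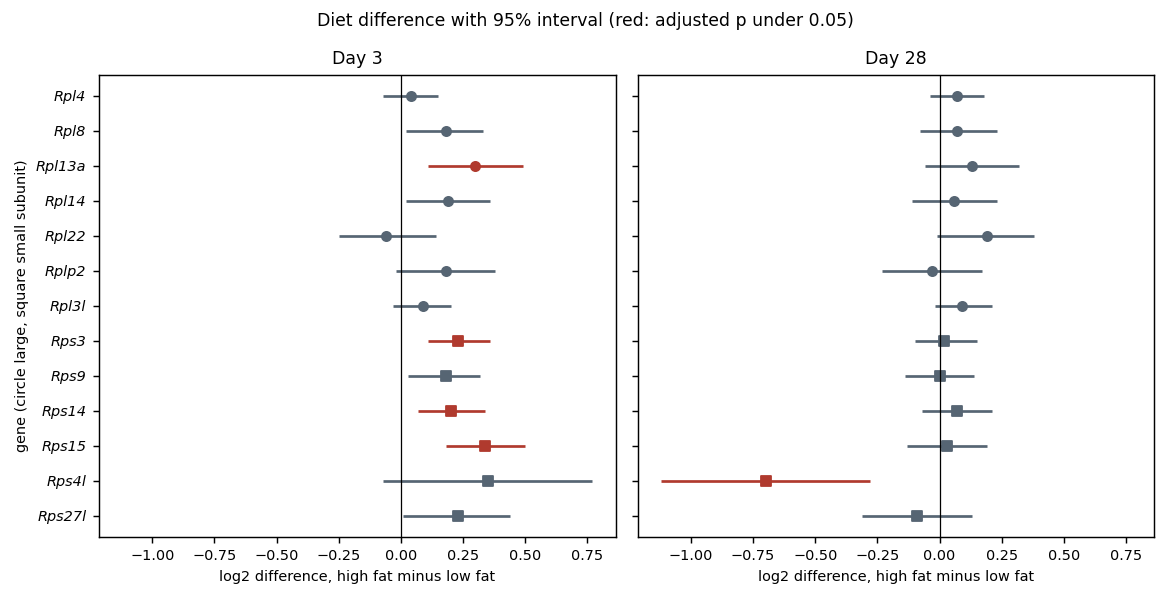
High fat minus low fat log2 difference of each of the 13 tested members at day 3 (left) and day 28 (right), with 95% intervals from limma; circles are large subunit and squares small subunit genes, and red marks an adjusted p under 0.05. At day 3 the red points are Rps15, Rps3, Rps14 and Rpl13a, all above 0, and at day 28 the single red point is Rps4l at -0.70.

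At day 28 the high fat and low fat groups lay close together for nearly all members. None of the 13 was called higher (5.35% of all tested genes were) and 1 was called lower, Rps4l (7.18% of all genes were). The difference was above 0 for 9 of 13 members, against 52.1% of all genes, and the member median was 0.06 against 0.01. Without low fat day 28 replicate 5 the member median was 0.08, against 0.01 over all genes, and no member was called. The 4 genes called higher at day 3 differed by 0.03 (Rps15), 0.02 (Rps3), 0.07 (Rps14) and 0.13 (Rpl13a), with adjusted p from 0.406 to 0.868. For Rps15 the 95% interval was -0.13 to 0.19, and 0.18 to 0.50 at day 3. For Rps3 it was -0.10 to 0.15, and 0.11 to 0.36 at day 3. For both genes the intervals of the days overlap, and the change between days is tested below.

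Rps4l was at 4.19, 4.55 and 5.33 (lowest, median, highest) on low fat at day 28 and at 3.59, 4.0 and 4.24 on high fat. All 6 high fat arrays lay below the low fat mean and 5 lay below the lowest low fat array. The difference was -0.70 ± 0.20 (0.617-fold, adjusted p = 0.0245). The gene is dim, above the filter level of 4 on 19 of 24 arrays, and its within-group SD of 0.37 was the largest among tested members, whose median SD was 0.13 against 0.19 over all tested genes. The call ended, with adjusted p between 0.0572 and 0.0721 and differences between -0.65 and -0.56, without any 1 of low fat day 28 replicates 5 and 6 or high fat day 28 replicates 4 and 6.

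Rpl8 was the one tested member whose diet groups did not overlap at day 28, from 10.62 to 10.67 on low fat and from 10.68 to 10.79 on high fat. Such a separation upward was seen for 3.49% of tested genes. The gap is small, and the test, which pools the spread over all 4 groups, gave 0.07 ± 0.08 (adjusted p = 0.600). Rpl8 was not called with only the day 28 arrays in the fit either. Rpl22 (0.19, adjusted p = 0.234) had the largest estimate above 0, with 4 of 6 high fat arrays above the highest low fat one. Rpl3l differed by 0.09 on both days (adjusted p = 0.313 at day 28), Rps9 by 0.00 and Rps27l by -0.09 (adjusted p = 0.656).

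Whether the diet difference itself changed between the days was tested as an interaction, which reuses the arrays of both diet comparisons. No member passed (limma; 1.38% of all genes did), while 4 of 13 had an unadjusted p under 0.05 against 18.8% of all genes. These were Rps4l, with -1.04 ± 0.29 (adjusted p = 0.0603), Rps15, with -0.31 ± 0.11 (adjusted p = 0.142), Rps3, with -0.21 ± 0.09 (adjusted p = 0.193), and Rps27l, with -0.31 ± 0.15 (adjusted p = 0.256). All 4 are small subunit genes by name. Without high fat day 3 replicate 3 the Rps4l interaction passed, at -1.12 (adjusted p = 0.0479). The estimate was above 0 for 3 of 13 members, against 50.1% of all genes, with a median of -0.17 against 0.00 over all genes, and Rpl22 had the largest estimate above 0, at 0.24 (adjusted p = 0.336). The calls at day 3 and their absence at day 28 are thus not shown to differ.

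Between days within a diet no member passed either, in a study where few genes did. On low fat 0 of 13 were called (0.345% of all genes), 4 had an unadjusted p under 0.05 (16.6% of all genes), and the median difference was 0.09, day 28 minus day 3. Those 4 were Rps4l (0.48, adjusted p = 0.243), Rps27l (0.25, adjusted p = 0.249), Rps14 (0.14, adjusted p = 0.286) and Rps3 (0.13, adjusted p = 0.279). On high fat 0 of 13 were called (0.552% of all genes), 2 had an unadjusted p under 0.05 (14.4% of all genes), and the median was -0.07. Those 2 were Rps4l (-0.56, adjusted p = 0.194) and Rps15 (-0.17, adjusted p = 0.322). The mean of Rps15 was 11.06 on low fat and 11.40 on high fat at day 3, and 11.20 and 11.23 at day 28, so both day 28 means lay between the day 3 means.

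Averaged over the tested members, the small subunit had the larger diet difference at day 3. The mean of its 6 genes was 9.74 ± 0.09 (SD, n = 6) on low fat and 10.00 ± 0.19 on high fat, a difference of 0.25, while the mean of the 7 large subunit genes was 9.90 ± 0.09 and 10.03 ± 0.09, a difference of 0.13. At day 28 the small subunit mean was 9.94 ± 0.12 on low fat and 9.83 ± 0.06 on high fat (-0.11), and the large subunit mean 9.93 ± 0.06 and 10.01 ± 0.05 (0.08). Without high fat day 3 replicate 5 the day 3 differences were 0.18 for the small and 0.1 for the large subunit. These averages are a description with no test. The level of large minus small has no meaning of its own on arrays, and only its shift between groups can be read. It moved by -0.12 with the high fat diet at day 3 and by 0.19 at day 28. The day 28 shift leans on 1 dim small subunit gene, Rps4l, at -0.70.

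The day 28 shift was smaller without the paralogues Rpl3l, Rps4l and Rps27l, which differed on that day by 0.09, -0.70 and -0.09. Large minus small ran from -0.11 to 0.05 on the low fat and from 0.11 to 0.27 on the high fat arrays at day 28, with no overlap. With the paralogues Rpl3l, Rps4l and Rps27l left out it ran from -1.57 to -1.45 and from -1.51 to -1.37, which overlap, with means of -1.51 ± 0.05 and -1.46 ± 0.05. At day 3 the same measure without paralogues was -1.42 ± 0.04 on low fat and -1.52 ± 0.10 on high fat, from -1.47 to -1.38 and from -1.64 to -1.37. By gene, the median difference at day 3 was 0.18 for the large and 0.23 for the small subunit, and 0.18 and 0.22 without the paralogues. At day 28 the medians without the paralogues were 0.07 and 0.03.

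**Figure D3:**
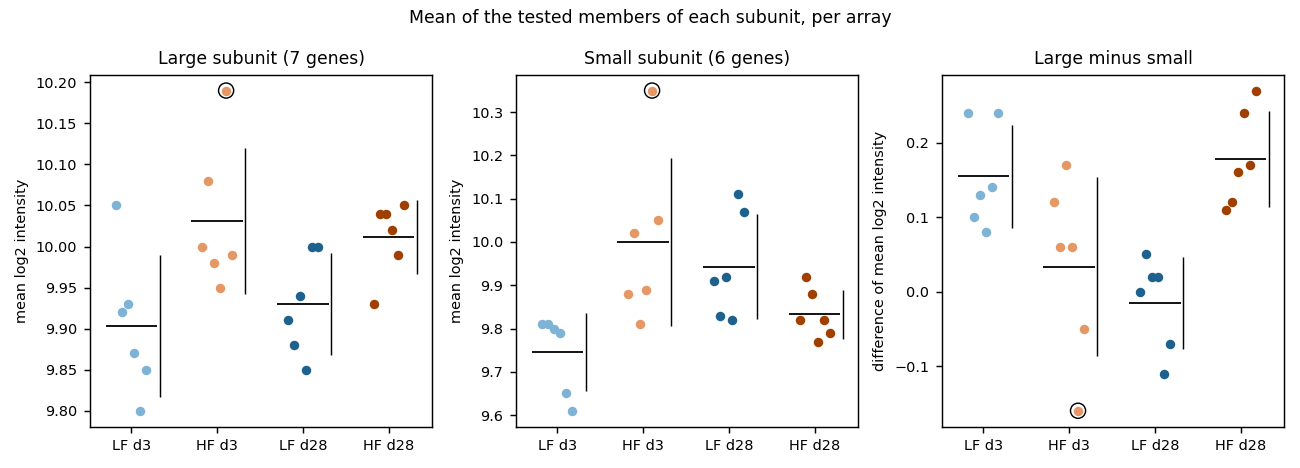
Mean log2 intensity per array over the 7 tested large subunit genes (left), the 6 tested small subunit genes (middle) and their difference (right) in the 4 groups (LF low fat, HF high fat, d day); bars are group means, vertical lines 1 SD, and high fat day 3 replicate 5 is circled. Replicate 5 has the highest small subunit mean, 10.35, and the lowest large minus small value, -0.16, while at day 28 the low fat (-0.11 to 0.05) and high fat (0.11 to 0.27) differences do not overlap. With the paralogues left out, which is not drawn, the day 28 differences overlap.

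Of the 19 members, 6 were too dim to test, with log2 never above 4 on any array: Rpl17, Rpl21, Rpl31, Rpl39l, Rps15a and Rpsa. Most of these are core ribosomal proteins that every cell makes, so their values, as low as 1.24 for Rps15a, say little about the level of the gene itself. Without the filter (14754 genes) Rpl39l, the paralogue of Rpl39 known from male germ cells, was lower on high fat on both days. It was at 2.06, 2.55 and 2.88 (lowest, median, highest) on low fat and at 1.48, 1.70 and 1.96 on high fat at day 3, and at 2.22, 2.71 and 3.02 against 1.46, 1.85 and 2.15 at day 28. The diet groups did not overlap on either day, a separation downward seen for 1.27% of all genes at day 3 and 2.42% at day 28.

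The Rpl39l difference was -0.78 ± 0.17 at day 3 (adjusted p = 0.00501) and -0.81 ± 0.17 at day 28 (adjusted p = 0.00313), where 2.25% and 3.36% of all genes were called lower. Its interaction was -0.03 (95% interval -0.51 to 0.45). All its values lie below the filter level: its highest intensity on any array was 8.14, and array medians over all probe sets ran from 6.56 to 6.90. Rpl31 was higher on high fat at day 3 by 0.36 ± 0.10 (adjusted p = 0.0321; 3.10% of all genes were called higher), from 3.11 to 3.58 on low fat and from 3.36 to 3.95 on high fat, with 4 of 6 high fat arrays above the low fat range. At day 28 it differed by 0.01. The remaining 4 dim members differed by -0.31 to 0.15 on the 2 days, with adjusted p of 0.450 or more.

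The mitochondrial ribosomal proteins, which build the separate ribosome inside mitochondria and whose mRNAs are not known for a TOP motif, served as the nearest comparison. At day 3, 8 of 61 tested were higher (7.99% of all tested genes were) and 0 lower (6.87% were), and 50 of 61 lay above 0, against 49.1% of all genes. The median was 0.11, against 0.19 for the cytosolic members and -0.01 over all genes. Mrpl12, which also binds the mitochondrial RNA polymerase, had the smallest p (0.50, adjusted p = 0.000237), followed by Mrpl18 (0.38), Mrpl46 (0.26) and Mrpl30 (0.22). Without high fat replicate 5, 7 were higher and the median was 0.09. At day 28, 0 were higher (5.35% of all genes were) and 1 was lower (7.18% were), Mrps2 (-0.25, adjusted p = 0.0132), with a median of -0.03. The same shares of all genes apply to the counts of the lists that follow.

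**Figure D4:**
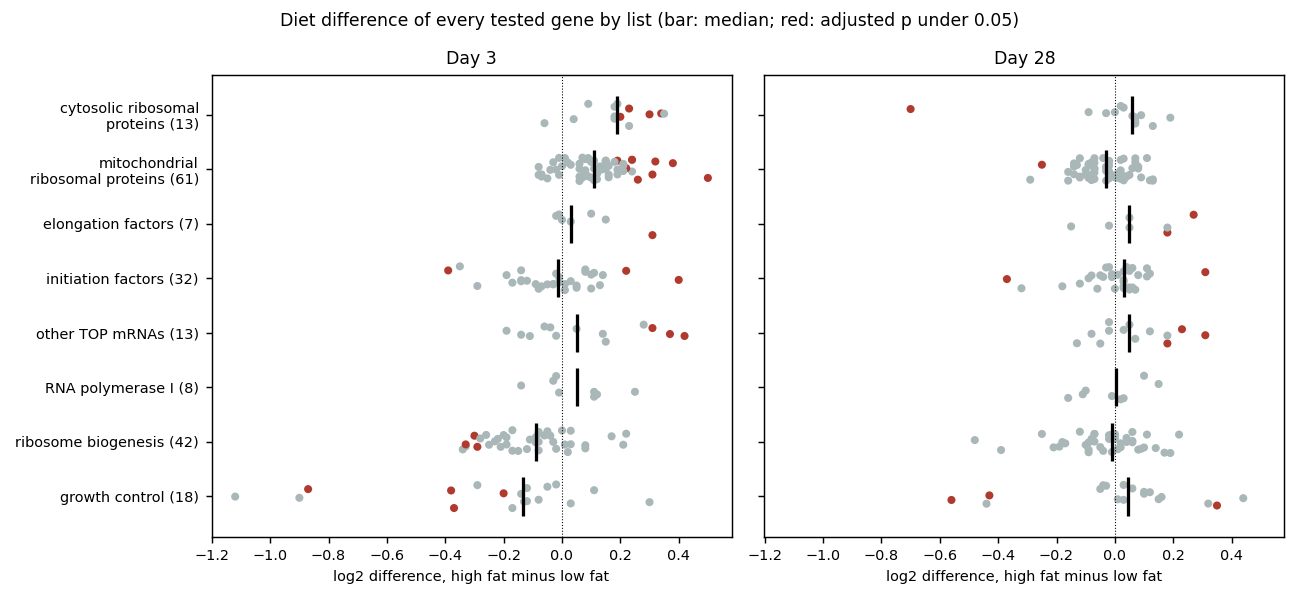
High fat minus low fat log2 difference (horizontal axis) of every tested gene of the cytosolic ribosomal proteins and of 7 related lists at day 3 (left) and day 28 (right); each point is a gene, black bars are list medians and red points have an adjusted p under 0.05. The medians of the cytosolic (0.19) and mitochondrial (0.11) ribosomal proteins lie above 0 at day 3, those of ribosome biogenesis (-0.09) and growth control (-0.14) below 0, and all 8 medians lie between -0.03 and 0.06 at day 28.

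Other mRNAs known to carry a TOP motif were followed as a list of 25 names, of which 13 were tested. At day 3, 3 were higher, against 7.99% of all genes, and 0 lower, with a median of 0.05: Vim, an intermediate filament protein of non-fibre cells (0.42, adjusted p = 0.00971), Eef1b2, a subunit of the elongation factor that exchanges GDP for GTP (0.31, adjusted p = 0.0148), and Tmsb4x, an actin-binding peptide abundant in white blood cells (0.37, adjusted p = 0.0223). All 3 remained called without replicate 5. At day 28, 3 others were higher, against 5.35% of all genes: Ipo5 (0.23, adjusted p = 0.0200), Eif4b (0.31, adjusted p = 0.0311) and Eef1d (0.18, adjusted p = 0.0467), with a median of 0.05. Eif3e, a subunit of initiation factor eIF3, was higher at day 28 than at day 3 on high fat (0.24, adjusted p = 0.0444).

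Of the 7 tested genes of the elongation factor list, 1 was higher at day 3 (Eef1b2) and 2 at day 28. The 2 were Eef1d and Eef2k (0.27, adjusted p = 0.0305). Eef2k is not a factor itself but the kinase that inhibits elongation factor eEF2. Of 32 tested initiation factors, 2 were higher at day 3, a share below the 7.99% of all genes, and the list's median was -0.02. They were the RNA helicase Eif4a1 (0.40, adjusted p = 0.0267) and the cap-binding protein Eif4e (0.22, adjusted p = 0.0483), and neither passed without replicate 5 (adjusted p = 0.0651 and 0.0606). Eif2b3, of the exchange factor for eIF2, was lower on both days, by -0.39 at day 3 (adjusted p = 0.0172) and -0.37 at day 28 (adjusted p = 0.0227).

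Genes that assemble ribosomes were followed as a list of their own. Of 42 tested ribosome biogenesis genes 0 were higher at day 3, against 7.99% of all genes, and 3 were lower, a share close to the 6.87% of all genes. The 3 were Las1l (-0.29, adjusted p = 0.0120) and Utp4 (-0.30, adjusted p = 0.0125), which act on ribosomal RNA processing, and Tsr1 (-0.33, adjusted p = 0.0262), which acts on small subunit maturation. The list's median was -0.09, and 9 of 42 lay above 0, against 49.1% of all genes. Without replicate 5, Tsr1 did not pass (-0.29, adjusted p = 0.0589). None was called at day 28. RNA polymerase I transcribes the ribosomal RNA, and 8 genes of its list were tested: Polr1c, Polr1d, Rrn3, Taf1b, Taf1c, Polr2e, Polr2f and Polr2h. Polr1a, Polr1b and Ubtf were not tested. None of the 8 was called on either day, with medians of 0.05 and 0.00.

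In the list of growth signals and transcription factors linked to ribosomal protein synthesis, 4 of 18 tested were lower at day 3 (6.87% of all genes were) and 0 higher, with a median of -0.14. They were Sesn1, a sestrin that restrains mTOR complex 1 (-0.87, adjusted p = 0.000511), Akt1s1 or PRAS40, another inhibitor of that complex (-0.37, adjusted p = 0.00122), Tsc1, of the complex that keeps its activator Rheb off (-0.20, adjusted p = 0.0252), and Eif4ebp1, which blocks the cap-binding protein until mTOR phosphorylates it (-0.38, adjusted p = 0.0329). Without replicate 5, Sesn1 and Akt1s1 passed, and Tsc1 (adjusted p = 0.0588) and Eif4ebp1 (adjusted p = 0.0752) did not. At day 28 Deptor, which also inhibits mTOR (-0.56, adjusted p = 0.00826), and Eif4ebp1 (-0.43, adjusted p = 0.0172) were lower, and Gabpa, the DNA-binding subunit of the ETS factor GABP, was higher (0.35, adjusted p = 0.0415). Sesn1 (-0.44, adjusted p = 0.0588), Akt1s1 (0.01, adjusted p = 0.929) and Tsc1 (0.16, adjusted p = 0.0838) were not called at day 28. Tsc1 was the one gene of these lists with a called interaction (0.35, adjusted p = 0.0352).

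Markers of other cells moved with the diet too, and a measure of RNA quality was followed beside them. The part of either in the ribosomal protein results was not tested. At day 3 all 11 tested slow fibre markers were higher on high fat (summed intensity from 553 to 3234 on low fat and from 5615 to 25996 on high fat), and 9 of 11 at day 28 (1318 to 3457 and 6087 to 11075). At day 3, 6 of 9 endothelial markers were higher (682 to 840 and 951 to 1085), 6 of 12 fibroblast and tendon markers (6928 to 13525 and 9051 to 13734) and 3 of 5 smooth muscle and pericyte markers (506 to 865 and 800 to 1229). At day 28 these counts were 1, 3 and 1, with 1 fibroblast marker lower.

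Macrophage markers went the other way, with 2 of 11 lower at day 3 (1324 to 3027 on low fat and 1036 to 2324 on high fat) and 11 of 11 at day 28 (1640 to 3347 and 924 to 1637). Adipocyte markers were lower for 5 of 11 at day 3, with 1 higher, and for 9 of 11 at day 28. No marker of proliferating cells passed the filter, with summed intensities of 43 or less on every array. The beta-actin control, whose 3′ minus 5′ log2 difference grows with RNA breakdown, ran from -0.04 to 0.23 on low fat and from 0.10 to 0.37 on high fat at day 3, and from -0.19 to 0.36 and from -0.17 to 0.25 at day 28. The diet groups overlapped on both days, with medians of 0.18 and 0.22 at day 3 and 0.13 and 0.16 at day 28. Its change with the diet was not tested. Without the 4 arrays of highest difference, 2 of them high fat day 3, Rps15 and Rps3 remained called at day 3 and Rps4l was not called at day 28 (-0.61, adjusted p = 0.125).

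Low fat day 3 replicate 1, whose extraction protocol does not mention the DNase treatment named for the other arrays, had the highest value of its group for 9 of the 13 members, and low fat day 3 replicate 5 had the lowest for 9. Without replicate 1 the same 4 genes were called at day 3.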

How the data were processed

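RNA of 24 quadriceps muscles was measured on Affymetrix arrays, 1 per mouse, 6 in each of 4 groups taken from the labels. The deposited table gives 1 linear intensity for each of 16361 probe sets and 24 arrays, from 0.881 to 20520; the authors computed these intensities with GCRMA, per the submitters' processing notes. Neither its version nor a genome build is given in the sources used here, and the number of arrays limits the precision. Probe sets are named by gene number, and the platform annotation gave 14771 of them 1 symbol and 589 several. The rest are 64 array controls and 937 others that it did not list.

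Log2 was taken with no offset. Of probe sets sharing a symbol the one of highest mean was kept. Genes with log2 above 4 on at least 6 arrays (5793) entered a limma 3.58.1 model (R 4.3.3) of 4 group means with 20 residual degrees of freedom, and p-values were adjusted by Benjamini-Hochberg over all of them; calls were made below an adjusted p of 0.05. The fit was tested on simulated data. Members, gene lists and tests were chosen with earlier results of these data known. Named with values were the members called in any comparison, the 5 of largest difference, level or spread, untested members and paralogues, and the called genes of each pathway list, up to 4 per list by smallest p. Some uncalled genes of the growth signal list were named as well. Array medians ran from 6.56 to 6.90, and no 2 arrays held identical values. Alternatives covered the filter, quantile normalization, an offset of 16, centring, array weights, the arrays in the fit, the prior, the replicate number as a block, RNA quality and, added after the data were seen, each array left out in turn. Subunit means carry no test.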

Additional observations from a re-analysis of the deposited data

Results flagged for a closer look

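Among 52 sets of 6 values (13 tested members in 4 groups), 3 held an array whose gap to the nearest other array was above the 95% critical value of Dixon's test for 6 values, as a share of their range; chance marks about 1 in 20 sets. Rpl8 was at 11.10 in high fat day 3 replicate 5, against 10.47 to 10.70 on the other 5 arrays. Rps4l was at 5.28 on the same array, against 4.12 to 4.52. Rps15 was at 11.47 in low fat day 28 replicate 5, against 11.07 to 11.21.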

How the results depend on the processing

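Of 1382 values of single members under the alternatives (each tested member's diet difference on each day, and the named day and interaction differences), 1336 kept direction and side of the threshold, 29 no longer passed, 3 newly passed (Rpl8 and Rps27l at day 3, the Rps4l interaction) and 14 changed sign, none of them called. At day 3 these were Rpl4 at -0.03 with quantile normalization and Rpl22 at 0.03 without high fat day 3 replicate 5. At day 28 they were Rps3 at -0.01 with quantile normalization, Rplp2 (-0.07 to 0.04 with single arrays left out) and Rps9, at 0.02 with centring, 0.01 with array weights, 0.04 without the actin arrays and -0.03 to 0.03 with single arrays left out. At day 3 the 4 calls became 2 with quantile normalization (Rps15, Rpl13a), 1 with only the compared arrays in the fit (Rps15, with 507 of all genes called against 861), 3 with array weights (Rps14 at adjusted p = 0.0996 was not called), 2 without the 4 arrays of highest actin difference, and 2 to 4 with single arrays left out, 2 of these without low fat day 3 replicate 6 or high fat day 3 replicate 5 or 6. Without the filter 4 members were called, of which Rps15 and Rps3 were shared. At day 28 the 1 call became 2 without the filter, 0 with a stricter filter (log2 above 6), where Rps4l is not tested, 0 without the actin arrays, and 0 to 1 with single arrays left out. The interaction gave 0 to 1 in that way, and the day comparisons 0. Large minus small at day 28 moved from 0.19 to 0.08 with the stricter filter, which drops Rps4l and Rpl14 and turns the small subunit difference from -0.11 to 0.01. No scaling moved the median of all genes by over 0.1.

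With the replicate number as a replicate block, 3 members were called at day 3 (Rps14 at adjusted p = 0.0691 was not), 1 at day 28 and 0 for the interaction, where calls over all genes went from 80 to 176. Same-numbered arrays correlated at a median of 0.07 (-0.38 to 0.54), and for 4 of 24 the closest array of another group had the same number, so the numbers do not pair the mice.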
